A study of Mus musculus with 12 samples.

Results

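The long noncoding RNAs examined here are nuclear and neural transcripts that turned up in a ribosome pulldown from the mouse retina: Miat, Malat1, Neat1, Tug1, Rmst, Six3os1, Vax2os and Snhg11. They were taken by gene symbol from a list of 8, drawn up as a sign of RNA not bound to ribosomes, and 7 of them had a row among the 53090 gene rows of each library. All 7 passed the filter on low counts. Rmst, a neuronal long noncoding RNA that works with the transcription factor SOX2, had no row matched by its symbol and was not analysed here. The list was compiled after the levels and age differences of these same libraries had been seen, and no numeric cut was stated for it. The difference between the ages is therefore described for these RNAs and is not tested.

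The 2 groups were 6 libraries from retinas at postnatal day 9 (P9) and 6 from retinas at postnatal day 3 (P3). Both came from C57BL/6 mice that received tamoxifen on days 1 and 2, and in both the RNA was recovered by immunoprecipitation through an HA tag. The promoter or Cre line behind the tag is not stated in these sources. No RNA from before the pulldown was analysed, and enrichment was therefore not measured. Tamoxifen was given longer before harvest at P9, which cannot be told apart from age. The labels do not say whether libraries came from separate animals, so the spread between them may be technical in part.

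Library totals were 32507000 to 37776000 expected counts at P9 and 26840000 to 33514000 at P3. Levels are CPM, the counts of a gene relative to library size after scaling for composition, which grow with transcript length and are therefore compared only within a gene. The labelled cell type is retinal pericytes. All 10 pericyte markers passed the filter, with summed levels of 2690 to 6081 CPM at P9 and 188 to 1160 CPM at P3. The libraries were not of pericyte RNA alone. Summed rod markers were 7522 to 15543 CPM at P9 and 1341 to 2830 CPM at P3. Progenitor markers were 1243 to 1495 CPM at P9 and 2757 to 7630 CPM at P3. Lens markers were 46.3 to 1011 CPM at P9 and 4336 to 11145 CPM at P3. Markers of bipolar and amacrine cells were also present. In bulk libraries, fewer cells of a type and less RNA per cell cannot be told apart. The labels do not give sex. Xist, an RNA made by female cells, had 2.94 to 6770 CPM at P9 and 7.03 to 17567 CPM at P3. Libraries within an age therefore differed in sex make-up and were not all technical repeats of a single sample.

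Long noncoding RNAs are transcripts without a long conserved reading frame, and many act inside the nucleus. Malat1 gathers in nuclear speckles, where splicing factors are stored. Neat1 is the scaffold of paraspeckles, nuclear bodies that hold RNA-binding proteins such as NONO. Miat, also known as Gomafu, forms its own dots in the nuclei of neurons and has a role in retinal cell specification. Six3os1 and Vax2os are transcribed next to, and opposite to, the homeobox genes Six3 and Vax2, which pattern the eye. Tug1 was first described in the developing mouse retina, and Snhg11 is a neuronal host transcript of small nucleolar RNAs. A transcript kept in the nucleus would not ordinarily meet a cytoplasmic ribosome.

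The start regions of 4 of these RNAs are shown because 3 of them were lower at P9 and Vax2os was higher. They run from 250 bases before to 50 bases after the start in RefSeq on GRCm38.p6, and all 4 are on the minus strand, at chr5:112228899-112229198 for Miat, chr19:5802623-5802922 for Malat1, chr17:85618347-85618646 for Six3os1 and chr6:83712152-83712451 for the first of the Vax2os starts. Capitals mark matches on either strand to GGGCGG, the core bound by Sp1, or to CCAAT, the core bound by NF-Y.
Miat: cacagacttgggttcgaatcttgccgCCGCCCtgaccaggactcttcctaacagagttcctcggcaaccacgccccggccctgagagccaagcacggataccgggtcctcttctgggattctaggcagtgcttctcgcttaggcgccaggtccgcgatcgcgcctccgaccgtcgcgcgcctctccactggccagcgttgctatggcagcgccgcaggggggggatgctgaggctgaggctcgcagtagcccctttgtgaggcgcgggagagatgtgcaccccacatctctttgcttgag
Malat1: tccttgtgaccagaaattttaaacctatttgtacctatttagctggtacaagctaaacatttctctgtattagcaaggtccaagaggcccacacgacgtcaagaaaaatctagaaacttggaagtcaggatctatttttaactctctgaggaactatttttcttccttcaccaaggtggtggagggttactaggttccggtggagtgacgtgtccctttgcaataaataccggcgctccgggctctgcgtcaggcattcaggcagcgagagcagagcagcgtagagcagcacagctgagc
Six3os1: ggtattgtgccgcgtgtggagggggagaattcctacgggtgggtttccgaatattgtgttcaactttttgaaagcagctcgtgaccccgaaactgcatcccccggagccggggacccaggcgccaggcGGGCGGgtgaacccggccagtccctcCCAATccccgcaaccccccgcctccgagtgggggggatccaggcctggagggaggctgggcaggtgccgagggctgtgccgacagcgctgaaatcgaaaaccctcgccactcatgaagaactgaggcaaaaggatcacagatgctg
Vax2os: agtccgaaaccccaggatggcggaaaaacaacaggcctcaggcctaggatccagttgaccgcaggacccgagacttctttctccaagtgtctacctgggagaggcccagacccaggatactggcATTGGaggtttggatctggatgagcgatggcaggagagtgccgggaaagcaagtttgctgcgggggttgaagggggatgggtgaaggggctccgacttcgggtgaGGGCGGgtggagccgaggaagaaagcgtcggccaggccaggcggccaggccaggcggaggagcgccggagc

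The Miat region was 64.3% G and C with 25 CG steps, and it held 1 GGGCGG. The Malat1 region was 47% G and C with 10 CG steps and matched none of the motifs searched. The Six3os1 region, at 63%, had 20 CG steps, 1 GGGCGG and 1 CCAAT. The Vax2os region, also at 63%, had 17 CG steps and the same pair of matches. Over 32851 RefSeq promoters of this length the medians were 52.7% G and C and 7 CG steps, GGGCGG was present in 35.7% and CCAAT in 37.4%. None of the 4 held TAATCC, the core bound by OTX2 and CRX (7.06% of all promoters), TGACGTCA (1.79%) or CACGTG (7.15%). The motifs were searched on both strands and none contains another. RefSeq promoters were found for 6 of the 8 listed RNAs.

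Among the 7 RNAs, Miat, Malat1 and Six3os1 were lower at P9 than at P3, Vax2os was higher, and Snhg11, Tug1 and Neat1 overlapped widely between the ages. By the threshold used for all genes (adjusted p under 0.05 in the quasi-likelihood test of edgeR), 3 of the 7 were lower and 1 was higher. Over all 18638 genes tested, 25.6% were lower, 26.1% were higher and 51.8% were past the threshold in either direction. The levels of Miat and Six3os1 did not overlap between the ages, as was the case for 31.7% of all genes. Nothing is read from these counts, since the RNAs were chosen with this comparison known.

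**Figure D1:**
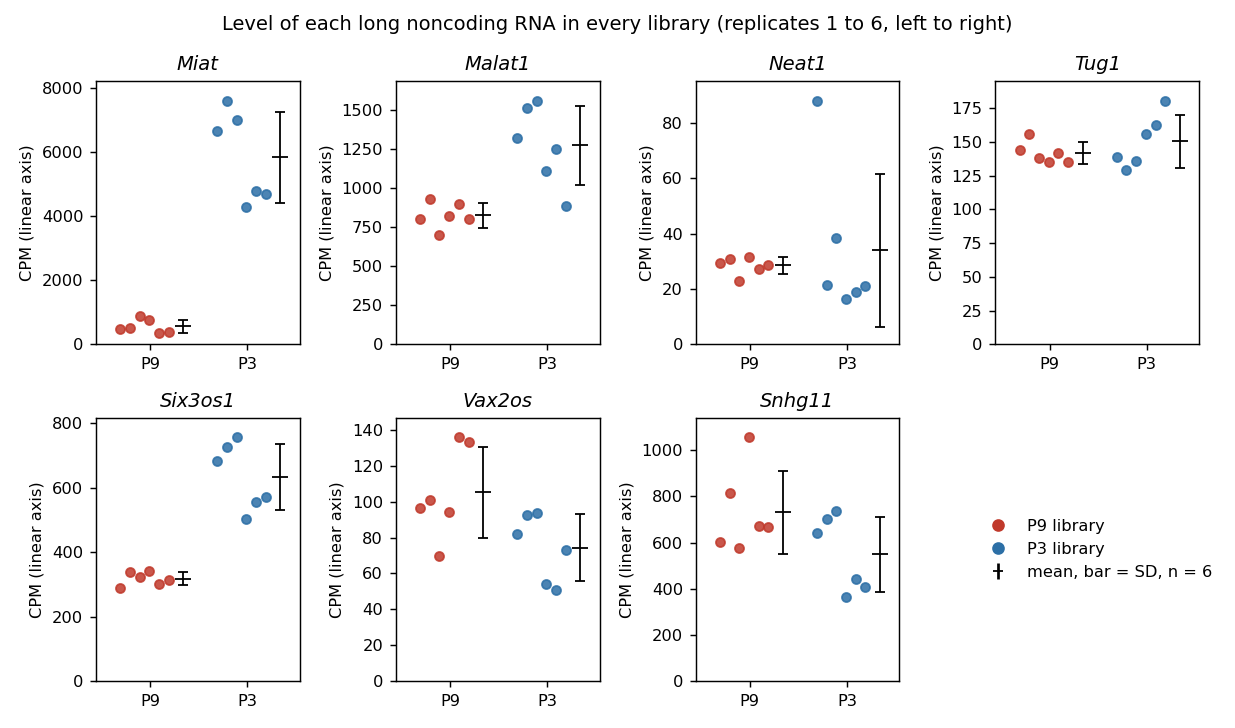
Level of each long noncoding RNA in CPM (linear axes, one panel per RNA), with P9 libraries left of P3 libraries, replicates 1 to 6 from left to right, and a bar for mean and SD (n = 6). The P9 libraries lie below every P3 library for Miat and Six3os1, and a single P3 library at 88.2 CPM stands above the rest for Neat1.

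Miat (ENSMUSG00000097767.8, chromosome 5, 112213228 to 112228948 in RefSeq on GRCm38.p6) showed the widest gap between the ages. Its level was 363 CPM in the lowest P9 library, 486 CPM at the median and 872 CPM in the highest, against 4277, 5734 and 7621 CPM in the P3 libraries. No P9 library reached any P3 library. The means were 562 ± 209 CPM at P9 and 5844 ± 1422 CPM at P3 (SD, n = 6 each), a log2 fold change of -3.38 ± 0.24 (SE), or 10.4-fold lower at P9.

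The spread of Miat within each age was uneven. At P9, replicates 3 and 4 stood highest at 872 and 768 CPM, and replicate 5 was lowest at 363 CPM. At P3, replicates 1 to 3 had 6681, 7621 and 7008 CPM, and replicates 4 to 6 had 4277, 4786 and 4692 CPM. The first 3 did not overlap the other 3, and all stayed above all P9 libraries. Across the fits tried, the log2 fold change of Miat ran from -3.55 to -3.16.

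Miat took 0.0349% to 0.0893% of all counts in a P9 library and 0.43% to 0.741% in a P3 library. Ranked by read count, which favours long transcripts, it was between 74th and 378th of all rows at P9 and between 1st and 3rd at P3. The 7 RNAs together took 0.241% to 0.33% of a P9 library, against 0.651% to 1.05% of a P3 library. Miat made up 14.3% to 32.2% of that joint count at P9 and 65.9% to 70.5% at P3. Without Miat, the other RNAs took 0.188% to 0.252% at P9 and 0.215% to 0.319% at P3, ranges that overlap.

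**Figure D2:**
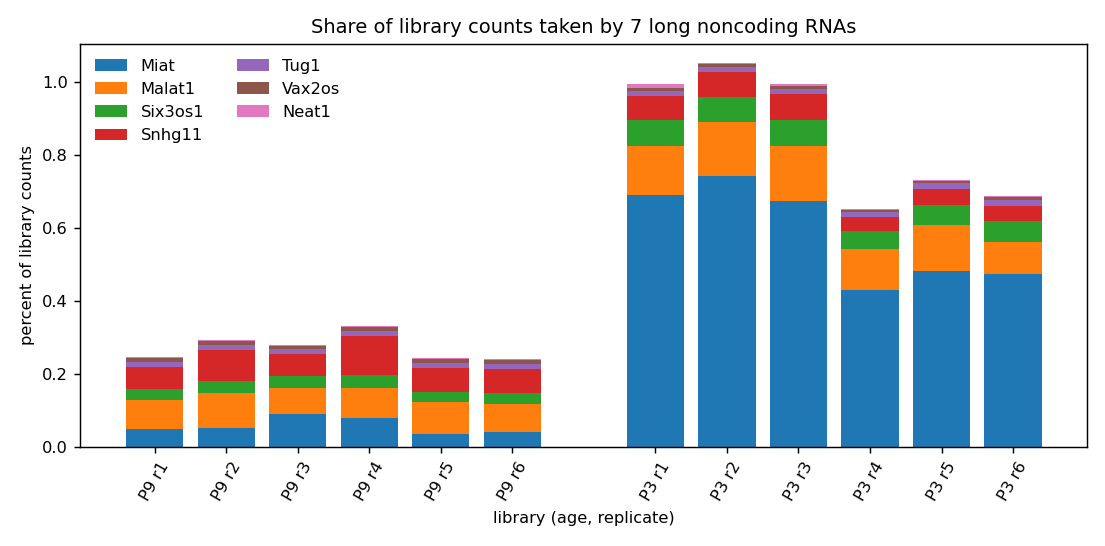
Share of each library's counts, in percent, taken by the 7 long noncoding RNAs, stacked by RNA, with the 6 P9 libraries left of the 6 P3 libraries. The joint share is 0.241% to 0.33% at P9 and 0.651% to 1.05% at P3, and Miat makes up 65.9% to 70.5% of it at P3.

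Malat1 (ENSMUSG00000092341.2, chromosome 19, 5795690 to 5802672), the speckle RNA, was lower at P9 by a smaller factor. It had 700 CPM in the lowest P9 library, 809 CPM at the median and 929 CPM in the highest, against 883, 1283 and 1558 CPM in P3 libraries. The ages overlapped only through P3 replicate 6, the lowest of its group. The means were 823 ± 80.8 CPM at P9 and 1271 ± 253 CPM at P3, a log2 fold change of -0.63 ± 0.13, or 1.54-fold lower at P9. P9 replicate 3, which was highest for Miat, was lowest for Malat1, so the nuclear RNAs did not follow a common order among the P9 libraries.

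Neat1 (ENSMUSG00000092274.2, chromosome 19, 5824708 to 5845480), the paraspeckle scaffold, lies next to Malat1 and did not share its pattern. Its level was 23.0, 29.1 and 31.5 CPM in the lowest, median and highest P9 libraries, against 16.2, 21.3 and 88.2 CPM at P3. The P9 libraries were close together, while P3 replicate 1 had 88.2 CPM, P3 replicate 3 had 38.4 CPM and the other P3 libraries had 21.4 CPM or less. The means were 28.5 ± 3.09 CPM at P9 and 34.0 ± 27.7 CPM at P3, with a log2 fold change of -0.26 ± 0.35. That sign rested on a single library, since the log2 fold change was 0.30 without P3 replicate 1, and it was 0.04 with limma-voom. P3 replicate 1 also held far more of some transcripts that are not typical of retina: Krt15, an epithelial keratin, had 0.785 to 1.51 CPM at P9, 662 CPM in P3 replicate 1, 27.9 CPM in P3 replicate 3 and 3.16 to 6.28 CPM in the other P3 libraries. Acta1, skeletal muscle actin, had 0.986 to 1.75 CPM at P9 and 148 CPM in P3 replicate 1. The part of other tissue in the Neat1 level was not tested.

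Tug1 (ENSMUSG00000056579.17, chromosome 11, 3639785 to 3648814) was the steadiest of the 7. It had 135, 140 and 156 CPM in the lowest, median and highest P9 libraries and 129, 147 and 181 CPM in P3 libraries, with the P9 values lying inside the P3 range. The means were 142 ± 8.0 CPM at P9 and 151 ± 19.5 CPM at P3, a log2 fold change of -0.09 ± 0.08. At P3, replicates 4 to 6 were above replicates 1 to 3, the reverse of the order seen for Miat.

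Six3os1 (ENSMUSG00000093460.9, chromosome 17, 85601932 to 85618396), the transcript opposite Six3, was lower at P9. Its level was 288 CPM in the lowest P9 library, 318 CPM at the median and 341 CPM in the highest, against 504, 628 and 757 CPM at P3. The ages did not overlap. The means were 318 ± 20.7 CPM at P9 and 633 ± 103 CPM at P3, a log2 fold change of -0.995 ± 0.103, or 1.99-fold lower at P9. P3 replicates 1 to 3 had 684, 727 and 757 CPM and replicates 4 to 6 had 504, 554 and 572 CPM, the same division of the P3 libraries as for Miat.

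Vax2os (ENSMUSG00000085794.5, chromosome 6, 83692804 to 83712201), which is expressed in the mouse retina opposite Vax2, was higher at P9. It had 70.0, 98.7 and 136 CPM in the lowest, median and highest P9 libraries, against 50.6, 77.6 and 93.6 CPM at P3. The ages overlapped, and P9 replicates 5 and 6 stood apart at 136 and 133 CPM. The means were 105 ± 25.2 CPM at P9 and 74.4 ± 18.6 CPM at P3, a log2 fold change of 0.50 ± 0.18, or 1.42-fold higher at P9. The side of the threshold on which it fell depended on single libraries. It was past the threshold in 14 of 21 fits and not past it without P9 replicate 5 or 6 or without P3 replicate 4, 5 or 6, and its log2 fold change was 0.28 without both P9 replicates 5 and 6.

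Snhg11 (ENSMUSG00000044349.15, chromosome 2, 158375713 to 158386474), the neuronal small nucleolar RNA host, had 578, 670 and 1056 CPM in the lowest, median and highest P9 libraries. At P3 it had 364, 541 and 737 CPM. The ages overlapped widely, with P9 replicate 4 the highest of all 12 libraries. The means were 731 ± 179 CPM at P9 and 549 ± 163 CPM at P3, with a log2 fold change of 0.41 ± 0.19. P3 replicates 1 to 3 had 639, 702 and 737 CPM and replicates 4 to 6 had 364, 443 and 407 CPM, so the P3 libraries divided here as they did for Miat and Six3os1.

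The division of the P3 libraries ran through the RNAs and through some, but not all, of the cell markers. All of the 7 RNAs but Tug1 were higher in P3 replicates 1 to 3 than in replicates 4 to 6 without overlap. For Neat1 this was by a very small margin, with 21.4 CPM in P3 replicate 2 and 21.2 CPM in P3 replicate 6. Tug1 was lower in replicates 1 to 3. Summed progenitor markers, mostly cell cycle genes of dividing retinal cells, were 1243 to 1495 CPM at P9, against 4855, 5422 and 7630 CPM in P3 replicates 1 to 3 and 2757, 2875 and 4582 CPM in replicates 4 to 6. Summed pericyte markers were highest in P3 replicates 4 and 5. Rod markers were highest there too, at 2830 and 2637 CPM. P3 replicate 6, at 1729 CPM, lay among replicates 1 to 3 (1341 to 1842 CPM). Bipolar markers had the same order, with 233 and 241 CPM in P3 replicates 4 and 5. They had 191 CPM in P3 replicate 6 and 189 to 203 CPM in replicates 1 to 3. Without P3 replicates 4 and 5, the log2 fold change of Snhg11 was 0.24 and that of Vax2os 0.30. The part of these cell types in the levels of the RNAs was not tested.

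With age means removed, Six3os1 and Snhg11 moved together most closely over the 12 libraries (Pearson r = 0.893), followed by Malat1 and Snhg11 (0.733) and Miat and Six3os1 (0.695). Tug1 ran opposite to each of the other RNAs, with r between -0.66 and -0.39. Miat and Vax2os were almost unrelated at -0.14. The RNAs share libraries and depth, so these values are descriptions.

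**Figure D3:**
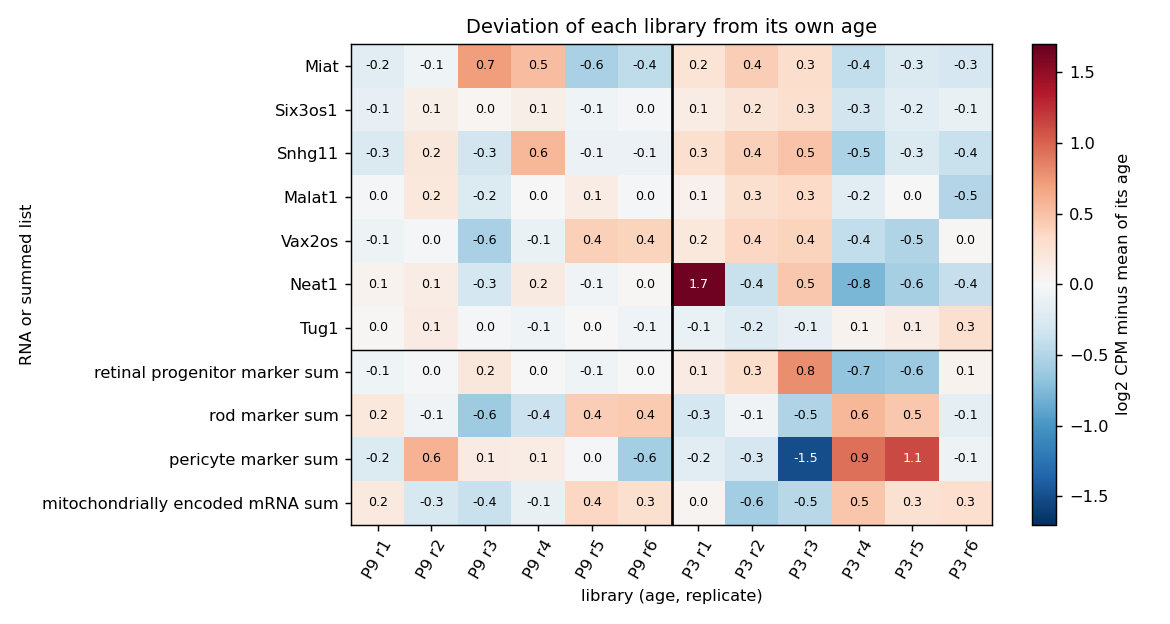
Deviation of each library from the mean of its own age, in log2 CPM, for the 7 long noncoding RNAs and for the summed marker and mitochondrial lists (rows), with P9 libraries left of P3 libraries (columns). Miat, Six3os1 and Snhg11 are above their age mean in P3 replicates 1 to 3 and below it in replicates 4 to 6, and Tug1 runs the other way.

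Among 10333 other genes averaging 10 CPM or more, model, Rik and pseudogene names left out, the one most like Six3os1 after removal of age means was Pax6, the transcription factor that governs eye development (r = 0.978 over 12 libraries). The highest of so many correlations is high by construction, so the likenesses given here are descriptions. Pax6 averaged 352 CPM at P9 and 752 CPM at P3. Miat was closest to Pdlim7, a cytoskeletal adaptor (r = 0.983), and to Plcg1, a phospholipase in growth factor signalling (0.968). Both were lower at P9, with Plcg1 at 189 ± 29.4 CPM at P9 and 406 ± 55.3 CPM at P3. Malat1 was closest to Dicer1, the microRNA-processing enzyme (0.926), Tug1 to Cdk14 (0.966) and Pkia (0.966), Vax2os to Ahcyl1 (0.952) and Snhg11 to the splicing regulator Srek1 (0.949). Neat1 was closest to Krt15 (0.963), Acta1 (0.957) and Net1 (0.947), and within P9 alone the same correlations were -0.03, -0.06 and 0.29, so that likeness rested on the P3 libraries named above.

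Coding genes beside the RNAs were compared between the ages because Six3os1 and Vax2os overlap theirs. Six3 overlaps Six3os1 by 4789 bases in RefSeq and fell with it, at 102 ± 10.9 CPM at P9 and 170 ± 23.4 CPM at P3 without overlap (log2 fold change -0.74 ± 0.10, adjusted p = 2.45e-05, edgeR quasi-likelihood test). Vax2 overlaps Vax2os by 963 bases and had 8.19 ± 2.17 CPM at P9 and 7.68 ± 1.65 CPM at P3 (log2 fold change 0.09 ± 0.19, adjusted p = 0.714, same test). Whether the counting used the strand is not stated, so reads from the overlapping stretches cannot be told apart between the partners.

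On the sides of Miat, both flanking coding genes fell. Mn1, a transcriptional coregulator 756197 bases away, had 12.3 ± 3.54 CPM at P9 and 44.2 ± 8.53 CPM at P3 (log2 fold change -1.84 ± 0.18, adjusted p = 1.31e-06, edgeR). Cryba4, a lens crystallin 17543 bases away, had 6.46 ± 8.93 CPM at P9 and 269 ± 82.1 CPM at P3 (log2 fold change -5.37 ± 0.66, adjusted p = 9.29e-06, edgeR). Without P9 replicate 2, the library with most Cryba4 at P9, its log2 fold change was -6.54. The 10 lens markers, taken as a sign of lens tissue in the libraries, include Cryba4 itself. Their sum was 46.3 to 1011 CPM at P9 and 4336 to 11145 CPM at P3, and all 10 fell. The part of lens tissue in the Miat level was not tested.

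Morc2a, a chromatin-silencing ATPase that starts 374 bases from Tug1, fell to 159 ± 8.57 CPM at P9, against 213 ± 27.1 CPM at P3 (log2 fold change -0.42 ± 0.08, adjusted p = 0.000676, edgeR). Frmd8, which lies on the Neat1 side of the Malat1 and Neat1 locus, had a log2 fold change of -0.05 ± 0.13 and was not past the threshold. Smtn, Camkmt, Lbp and Ralgapb were not past it either, and Cd207 was under the filter on low counts.

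**Figure D4:**
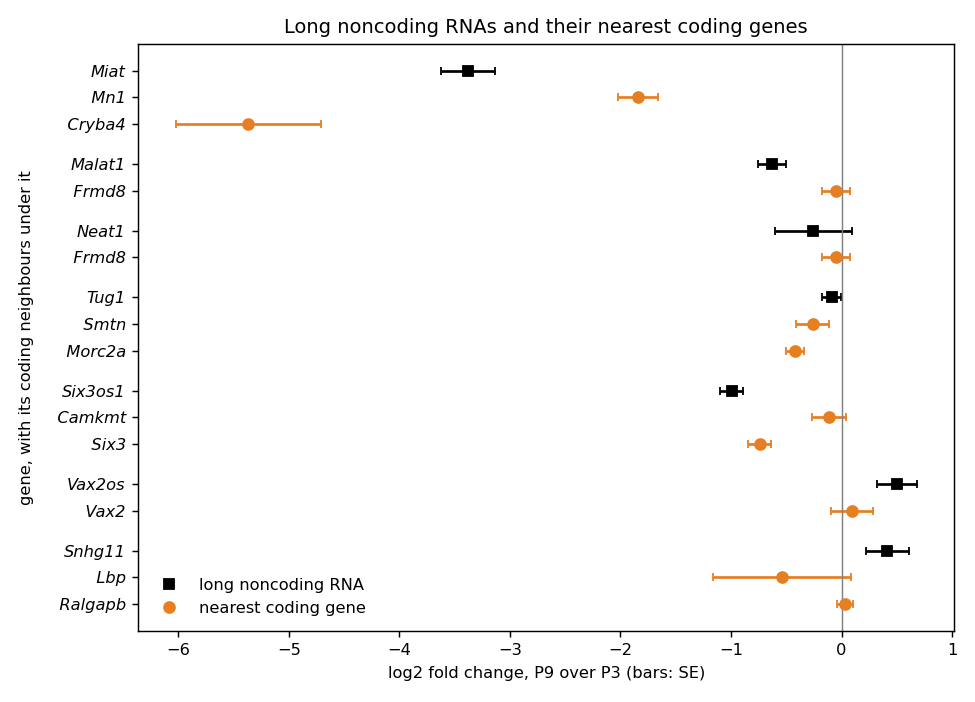
Log2 fold change of P9 over P3, with standard error bars, for each long noncoding RNA (squares) and its reported coding neighbours (circles), grouped by locus. Miat lies between Mn1 and Cryba4, which both fell, and Malat1 at -0.63 is set beside Frmd8, which is near 0.

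Other long noncoding RNAs were counted from 4 lists, of which 62 members passed the filter: 10 rose, 23 fell and 29 did not pass the threshold, with a median log2 fold change of -0.28. Over all 1032 other tested genes that RefSeq annotates as long noncoding, 143 rose (13.9%), 222 fell (21.5%) and the median was -0.10. Over all tested genes the shares were 26.1% and 25.6%. Among the 160 annotated long noncoding RNAs averaging 10 CPM or more, 37 rose (23.1%) and 68 fell (42.5%), beside 30.7% and 32.5% of all 10963 genes at that level.

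Of 18 nuclear and imprinted RNAs tested, 2 rose, 6 fell and 10 did not pass the threshold. H19, a maternally expressed growth-linked RNA, fell to 27.0 ± 9.43 CPM at P9, against 159 ± 147 CPM at P3 (log2 fold change -2.56 ± 0.42, adjusted p = 0.000126, edgeR). P3 replicate 1 had 458 CPM of H19, and without it the log2 fold change was -1.88. Dleu2, a microRNA host, fell (-1.08 ± 0.15), as did Kcnq1ot1, an imprinted antisense RNA (-0.46 ± 0.11), and Firre, an X-linked RNA of nuclear organisation (-0.30 ± 0.09). Firre was not past the threshold without P9 replicates 5 and 6 (adjusted p = 0.0678, edgeR). Peg13, an imprinted RNA of the brain, rose to 207 ± 16.4 CPM at P9, against 112 ± 31.2 CPM at P3. The other rise, 2900097C17Rik, was small (0.29 ± 0.11, adjusted p = 0.0378, edgeR), and the count of rises was 1 to 3 with single libraries left out.

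Small nucleolar RNA hosts, the class to which Snhg11 belongs, gave 1 rise and 7 falls among 17 tested. Snhg17 fell to 41.2 ± 4.18 CPM at P9, against 98.9 ± 21.1 CPM at P3 (log2 fold change -1.26 ± 0.13, adjusted p = 1.75e-06, edgeR). Snhg5 (-1.31), Zfas1 (-0.89), Snhg1 (-0.86) and Gas5 (-0.73) fell too. The single rise was Snhg18 at 4.41 ± 1.3 CPM at P9 and 2.73 ± 0.642 CPM at P3 (adjusted p = 0.0288, edgeR), and the list had a rise in 11 of 21 fits and none in the others. Snhg11, at 0.41, was above 0 but not past the threshold (adjusted p = 0.0872, edgeR). Of the 17 hosts tested, 9 were not past it either, and some of those were above 0.

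Of 20 neural RNAs tested, 6 rose and 7 fell. Mir124-2hg, host of a neuronal microRNA, rose to 804 ± 142 CPM at P9, against 254 ± 19.4 CPM at P3 (log2 fold change 1.66 ± 0.11, adjusted p = 5.08e-08, edgeR). Crnde fell to 1.58 ± 0.32 CPM at P9, against 15.6 ± 5.47 CPM at P3 (-3.30 ± 0.26). Otx2os1, the transcript opposite the photoreceptor regulator Otx2, rose to 8.35 ± 1.5 CPM at P9, against 1.12 ± 0.671 CPM at P3. The hosts C130071C03Rik (-1.40 ± 0.11) and Mir9-3hg (-2.45 ± 0.17) fell together and carry the same mature microRNA, whose seed (bases 2 to 8) is in capitals and which was itself not measured.
mmu-miR-9-5p: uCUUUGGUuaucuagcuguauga

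Among 7 vascular and microRNA host RNAs tested, 1 rose and 3 fell. Lockd, which lies beside the cell cycle inhibitor Cdkn1b, fell to 0.467 ± 0.253 CPM at P9, against 15.0 ± 5.38 CPM at P3 (log2 fold change -4.98 ± 0.37, adjusted p = 1.08e-07, edgeR). Mir17hg, host of a microRNA cluster linked to proliferation, fell to 19.5 ± 5.14 CPM at P9, against 70.1 ± 21.5 CPM at P3. Mir22hg rose to 10.3 ± 1.17 CPM at P9, against 5.21 ± 1.21 CPM at P3. Among the RNAs that the rule named from the 4 lists, Lockd alone had a log2 fold change below the -3.38 of Miat.

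**Figure D5:**
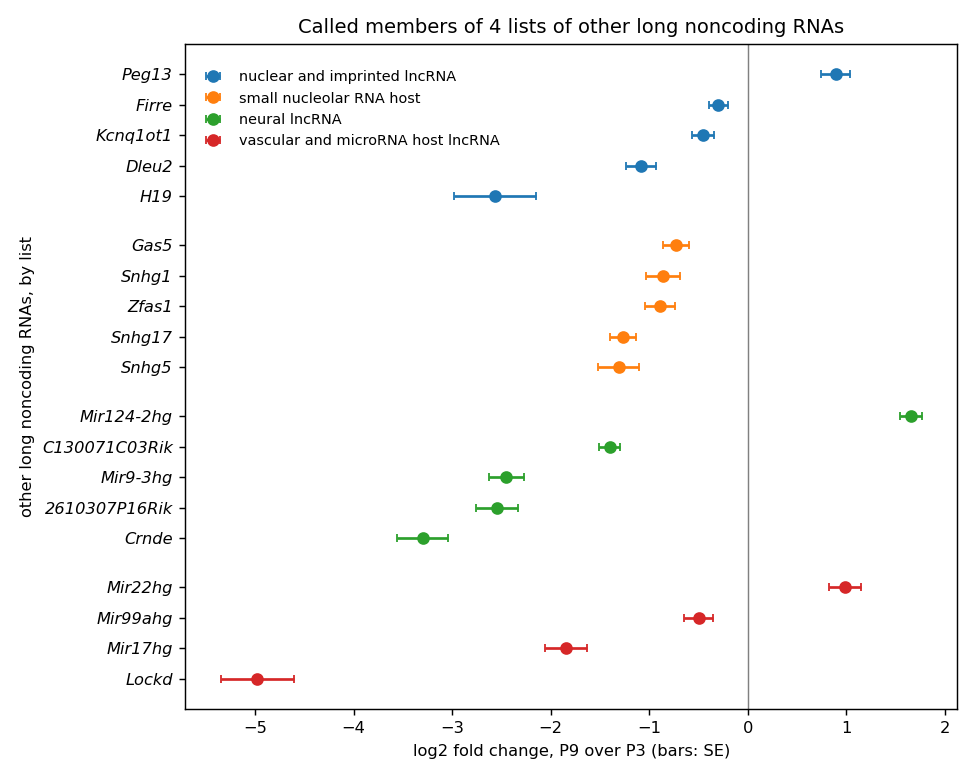
Log2 fold change of P9 over P3, with standard error bars, for the named long noncoding RNAs of the 4 lists (rows, coloured by list). Lockd at -4.98 and Crnde at -3.30 lie farthest to the left, and Mir124-2hg at 1.66 lies farthest to the right.

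The messages of proteins that nuclear long noncoding RNAs work with were counted beside all tested genes, of which 26.1% rose and 25.6% fell (30.7% and 32.5% of those averaging 10 CPM or more). Of 16 paraspeckle protein genes, 0 rose and 12 (75%) fell by edgeR's quasi-likelihood test, with a median log2 fold change of -0.48. Nono fell to 322 ± 22.6 CPM at P9, against 480 ± 33.1 CPM at P3 (-0.58 ± 0.07), and Rbm14 (-0.61) and Taf15 (-0.72) fell as well, while Hnrnpk, the most abundant by count, was at -0.17 ± 0.08 (adjusted p = 0.0665, edgeR). Of 15 nuclear speckle protein genes, 0 rose and 9 (60%) fell by the same test, among them Srrm2 at 1915 ± 101 CPM at P9 and 3284 ± 827 CPM at P3, Srsf7 (-0.69) and Srsf3 (-0.53). Of 12 proteins that bind these RNAs, 7 (58.3%) fell, among them Sox2, the partner of Rmst (-1.53 ± 0.12) and the histone methyltransferase Ezh2 (-1.19 ± 0.11), and Celf3, a neuronal splicing factor that binds Miat, was the single rise at 856 ± 107 CPM at P9 and 543 ± 64.1 CPM at P3. At an unadjusted p under 0.05, 0 paraspeckle and 0 speckle genes rose in edgeR, and none was called higher by DESeq2 or limma-voom. Celf3, 2900097C17Rik, Snhg18 and Otx2os1 were picked out after their values were seen.

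Mitochondrially encoded messages, which cytoplasmic ribosomes do not translate, are a further kind of RNA not expected on the tagged ribosomes. Of 13 genes, 9 passed the filter and 7 of those 9 rose. Under it were mt-Nd3, mt-Co2, mt-Co3 and mt-Atp6, with at most 324, 148, 3.76 and 1315 expected counts in a library. Why these were so low was not tested, and the sum covers only part of the mitochondrial messages. The summed level of the 9 was 11377 to 18984 CPM at P9 and 6736 to 14112 CPM at P3. The means were 15134 ± 3156 CPM at P9 and 10540 ± 2963 CPM at P3, a log2 difference of 0.55 (exact two-sided permutation test over all assignments of the libraries, p = 0.0346, n = 6 each). The smallest p this design allows is 0.00216. That call was lost without P9 replicate 1, 5 or 6 or P3 replicate 1, 2 or 3 (exact permutation p = 0.0519 to 0.0779). The mean sum was higher at P9. Among the long noncoding RNAs, Miat, Malat1 and Six3os1 were lower at P9 and Vax2os was higher. Snhg11 (log2 fold change 0.41), Tug1 (-0.09) and Neat1 (-0.26) were not past the threshold. The part of cell content, or of RNA off the ribosomes, in any of these levels was not tested.

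Cell markers moved with age beside the RNAs. Summed rod markers were 7522 to 15543 CPM at P9 and 1341 to 2830 CPM at P3, bipolar markers 1436 to 2360 CPM at P9 and 189 to 241 CPM at P3, and ganglion cell markers 511 to 796 CPM at P9 and 292 to 346 CPM at P3. Amacrine markers, the class in which Miat has been studied, were 1466 to 1695 CPM at P9 and 1442 to 1724 CPM at P3, so their sum overlapped fully while Miat differed 10.4-fold. Among the P9 libraries, replicate 3 had the highest Miat, the lowest Malat1, Neat1, Vax2os and Snhg11 of its age, and the least rod and bipolar marker signal.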

How the data were processed

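RNA from the HA pulldown of 12 retinal libraries was sequenced. The authors deposited RSEM expected counts per gene, without scaling for depth. The submitters' processing notes name the tools FastQC, Trim Galore, STAR, RSEM and limma, and the build mm10. Tool versions and the gene annotation: not given in the sources used here. Per the labels' protocols, the kit was stranded.

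Counts were rounded (15.9% were not whole). After filterByExpr, 18638 genes were tested and 34452 removed. TMM scaling and the quasi-likelihood test (edgeR 4.0.16, R 4.3.3) followed, with Benjamini-Hochberg adjustment over every tested gene and a threshold of 0.05. Log2 fold changes are P9 over P3, with an SE from the F statistic. Correlations are over log2 CPM (prior count 2). Alternatives used DESeq2 1.42.0 and limma 3.58.1; files were read with data.table, version 1.17.8. RefSeq on GRCm38.p6 gave coordinates, biotypes and sequences; 16226 tested genes matched by symbol, 376 by a former symbol and 2036 not at all. The procedure was tested on simulated data.

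Members and lists were chosen with earlier results of these data known. Named genes are all members, their coding neighbours (some are not reported here), the 3 genes most like each, the most abundant marker of a list where used, and, per list, up to 5 (long noncoding) or 3 (protein, plus the most abundant) past the threshold with the smallest adjusted p. The 5 largest rises and falls among annotated long noncoding RNAs are in the closing section. Replicates were numbered in accession order and pair nothing.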

Additional observations from a re-analysis of the deposited data

Results flagged for a closer look

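Of 134 groups of 6 libraries examined, 12 had a library far from the other 5 by Dixon's criterion, and chance gives about 1 in 20. Neat1 was high in P3 replicate 1 (88.2 CPM, next 38.4), and so was H19 (458 CPM, next 111). Hnrnpk was low in the same library (682 CPM, next 778). P9 replicate 4 was high for Firre (449 CPM) and Gas5 (214 CPM). P9 replicate 3 was high for Mir9-3hg (5.83 CPM) and Gm5607 (6.71 CPM, next 0.664) and low for the bipolar gene Grm6 (436 CPM). P9 replicate 2 was high for the lens genes Cryba4 (24.5 CPM, next 4.72) and Cryaa (472 CPM, next 132). P3 replicate 2 was high for Mir9-3hg (27.9 CPM), and P3 replicate 4 for Uckl1os (13.4 CPM).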

How the results depend on the processing

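Alternatives were other scaling factors, no filter, a filter at a mean of 10 CPM, DESeq2, limma-voom, each library left out, and P3 replicates 4 and 5 or P9 replicates 5 and 6 left out together. No paired analysis was possible because no replicate number is given in the labels. Comparing levels per transcript length was not run, since no transcript lengths were used here. Miat, Malat1 and Six3os1 kept their side of the threshold in all 21 fits (log2 fold changes -3.55 to -3.16, -0.71 to -0.56 and -1.11 to -0.94). The number of members higher at P9 was 0 to 2 with single libraries left out, 0 without P3 replicates 4 and 5 and 0 without P9 replicates 5 and 6. With that stricter filter, 39 annotated long noncoding RNAs rose and 68 fell of 160 tested, and 5 of 33 list members rose, since fewer genes were tested. A paraspeckle gene, 1 of 16, rose without P3 replicates 4 and 5. The mitochondrial log2 difference was 0.43 to 0.66 with single libraries left out and 0.39 without P9 replicates 5 and 6 (exact permutation p = 0.171). Hnrnpk fell past the threshold with DESeq2 (adjusted p = 0.0249) and in edgeR without P3 replicate 1 (adjusted p = 0.0269). Gm5607 was at -6.58 with limma-voom. The cause of these shifts was not tested. Scaling moved the median log2 fold change of all genes by at most 0.012. A gene at a few CPM rests on few reads, which limits Lockd, Crnde and Krt15 at P9.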

Other observations

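Among annotated long noncoding RNAs with a mean of at least 10 CPM and no overlap between the ages, the largest rises at P9 were those of A930003A15Rik (log2 fold change 4.33 ± 0.35; 19.5 ± 7.5 CPM at P9 and 0.957 ± 0.411 CPM at P3), AI847159 (2.93 ± 0.20; 64.0 ± 21.6 CPM at P9 and 8.41 ± 0.799 CPM at P3), A530058N18Rik (2.56 ± 0.18), Uckl1os (2.50 ± 0.22) and A230077H06Rik (2.44 ± 0.18). The largest falls were those of Gm26847 (-4.70 ± 0.52; 0.778 ± 0.627 CPM at P9 and 20.5 ± 6.75 CPM at P3), Gm5607 (-3.98 ± 0.90), A830036E02Rik (-3.42 ± 0.24; 3.52 ± 1.02 CPM at P9 and 37.9 ± 11.4 CPM at P3), H19 and Mir9-3hg. Without P9 replicate 3, Gm5607 was at -6.63. All were past the threshold in every fit that gave an adjusted p, whether by edgeR, DESeq2 or limma-voom.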
